A study of Mus musculus with 16 samples.

Results

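Dual specificity MAP kinase phosphatases were followed in CD8 T cells sorted from mouse mammary tumours after daily dosing with entinostat, which blocks class I histone deacetylases, or with vehicle. The 8 genes described are Dusp1, Dusp2, Dusp4, Dusp5, Dusp6, Dusp7, Dusp10 and Dusp16, taken by symbol from the 24028 genes of the count table. All 8 were found and all 8 passed the filter on low counts, which left 17414 genes for testing. The tumours were TS/A, a mammary adenocarcinoma line injected into a mammary pad of BALB/c mice, and dosing at 20 mg/kg entinostat or with vehicle began on day 7. The groups were entinostat day 10, vehicle day 10, entinostat day 17 and vehicle day 17, with 4 libraries in each and up to 3 or 10 days of dosing by the day of harvest. No transgene or deletion is named for any group, and neither the age and sex of the mice nor how many mice went into a library is given in the sources used here.

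MAP kinases (ERK, JNK and p38) are switched on when a kinase adds phosphate to a threonine and a tyrosine in their activation loop, and dual specificity phosphatases switch them off by removing both. Members differ in place and in target: Dusp1, Dusp2, Dusp4 and Dusp5 encode nuclear enzymes whose genes are induced by MAP kinase signalling itself, Dusp6 and Dusp7 encode cytoplasmic enzymes that act on ERK, and Dusp10 and Dusp16 encode enzymes that act on JNK and p38. T cells use these cascades to turn receptor engagement into division and cytokine production, and several of the phosphatases are induced when a T cell is activated.

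Total counts were 2639019 to 5709243 in the entinostat day 10 libraries and 3640768 to 4227704 in the vehicle day 10 libraries. They were 554593 to 3530961 in the entinostat day 17 libraries, of which replicate 3 was the shallowest, and 2842099 to 6975904 in the vehicle day 17 libraries. Levels below are CPM (read counts scaled to a common total) on library sizes scaled by the TMM method. Actb had 1618 reads in entinostat day 17 replicate 3, the shallowest library, and 3265 in vehicle day 17 replicate 1, the deepest. Counts of this abundant gene thus did not grow in proportion to depth. CPM of highly expressed genes may be too low in deep libraries, and how far this holds for the members was not tested. Cd8a stood at 309 to 591 CPM over the 16 libraries. Cd4, which the sort selected against, stood at 5.21 to 14.1 CPM in entinostat libraries and at 17.9 to 54.8 CPM in vehicle libraries, without overlap. RNA of other origin also moved with the groups. The summed level of 12 plasmacytoid dendritic cell genes was 552 to 1020 CPM in entinostat day 10 libraries against 1430 to 2895 CPM in vehicle day 10 libraries, and 614 to 784 CPM in entinostat day 17 libraries against 2561 to 3185 CPM in vehicle day 17 libraries, with none of the 12 at 0. Summed reads of the odorant and pheromone receptor families, not known to be used by T cells and taken here as a background level, were 3653 ± 2248 CPM in entinostat day 10 libraries, 1597 ± 646 CPM in vehicle day 10 libraries, 4776 ± 1201 CPM in entinostat day 17 libraries and 3269 ± 1937 CPM in vehicle day 17 libraries (SD, n = 4 each). In bulk RNA, fewer cells of a type and less RNA per cell cannot be told apart.

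The promoters of the phosphatase genes whose transcripts moved in opposite directions with entinostat at day 17, Dusp10 and Dusp16, are shown first, each as the 250 bases before the annotated start (RefSeq, GRCm38.p6, 5′ to 3′ on the gene's own strand). Capitals mark every match, on either strand, to a GC box (GGGCGG) or to an EGR site (GCGNGGGCG). The Dusp10 window is chr1:184034131-184034380 on the plus strand, and the Dusp16 window is chr6:134792629-134792878 on the minus strand, at a start inside the longer annotated span of that gene. The first transcribed bases at this Dusp16 start were not found whole in a GENCODE M21 transcript of the gene, unlike those of the other members' windows.
Dusp10: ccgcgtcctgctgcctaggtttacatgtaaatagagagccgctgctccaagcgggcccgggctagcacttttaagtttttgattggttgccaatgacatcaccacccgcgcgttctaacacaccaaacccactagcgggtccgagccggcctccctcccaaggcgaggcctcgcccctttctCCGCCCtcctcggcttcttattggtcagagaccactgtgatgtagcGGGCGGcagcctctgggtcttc
Dusp16: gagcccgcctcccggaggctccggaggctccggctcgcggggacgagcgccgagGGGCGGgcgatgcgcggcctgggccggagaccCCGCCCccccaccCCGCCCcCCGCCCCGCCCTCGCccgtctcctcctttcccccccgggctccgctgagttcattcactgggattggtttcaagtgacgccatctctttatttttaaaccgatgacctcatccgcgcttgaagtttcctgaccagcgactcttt

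The Dusp10 window held 2 GC boxes and no other motif searched. The Dusp16 window held 5 GC boxes, of which the pair nearest the start overlap by 1 base, and 1 EGR match that overlaps the last of them. Letters of signal-responsive sites were found in other members, and the stretches that hold them are given with 10 bases on each side. Capitals mark a cAMP response element (CRE, TGACGTCA) in Dusp1, at chr17:26508598-26508625 on the minus strand, and 2 adjoining CArG boxes, the letters bound by serum response factor, in Dusp5, at chr19:53529053-53529092 on the plus strand.
Dusp1: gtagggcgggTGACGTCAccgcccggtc
Dusp5: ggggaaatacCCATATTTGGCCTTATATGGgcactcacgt

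Windows were held for 7 of the 8 genes, all but Dusp4. A GC box was in 5 of the 7, against 32.74% of 32851 promoter windows of the same length, and an EGR match was in 2 of the 7 (Dusp2 and Dusp16), against 4.7%. The CRE was in 1 of the 7, against 1.55%, and the CArG box in 1 of the 7, against 1.47%. No AP-1 match (TGANTCA) and no ETS match (CCGGAAG) was in any of the 7, against 6.75% and 6.91% of all windows. A match is a description of letters and says nothing here about what is bound.

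Compared per kilobase of exon, the members spanned a wide range of levels that kept much of its order in all groups. If counts of abundant genes fall short of depth, as those of Actb did, the distances between high and low members are understated. In entinostat day 10 libraries Dusp2 led at 156 CPM per kb, followed by Dusp1 at 117, Dusp5 at 112 and Dusp10 at 93.0 CPM per kb. In vehicle day 10 libraries the same order held, with Dusp2 at 184, Dusp1 at 138, Dusp5 at 118 and Dusp10 at 86.8 CPM per kb. Dusp2 was above Dusp1 in every library of both groups without overlap of their ranges, whereas the ranges of Dusp1 and Dusp5 overlapped. Dusp4, Dusp6, Dusp7 and Dusp16 were lower, at 46.7, 32.7, 15.8 and 3.27 CPM per kb in entinostat day 10 libraries and at 47.7, 31.5, 18.2 and 1.83 CPM per kb in vehicle day 10 libraries. At day 17 the place of Dusp10 differed: at 34.7 CPM per kb in entinostat libraries it stood below Dusp4, at 58.5 CPM per kb, in every library and overlapped Dusp6, at 33.1 CPM per kb. In vehicle day 17 libraries Dusp10, at 54.9 CPM per kb, overlapped Dusp4, at 48.5 CPM per kb. Dusp16 remained the lowest in every group, at 5.24 CPM per kb in entinostat day 17 libraries and 2.74 CPM per kb in vehicle day 17 libraries. The 8 levels summed to 577 ± 49.8 CPM per kb in entinostat day 10 libraries, 627 ± 41.9 in vehicle day 10 libraries, 466 ± 73.5 in entinostat day 17 libraries and 470 ± 28.9 in vehicle day 17 libraries (SD, n = 4 each).

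**Figure D1:**
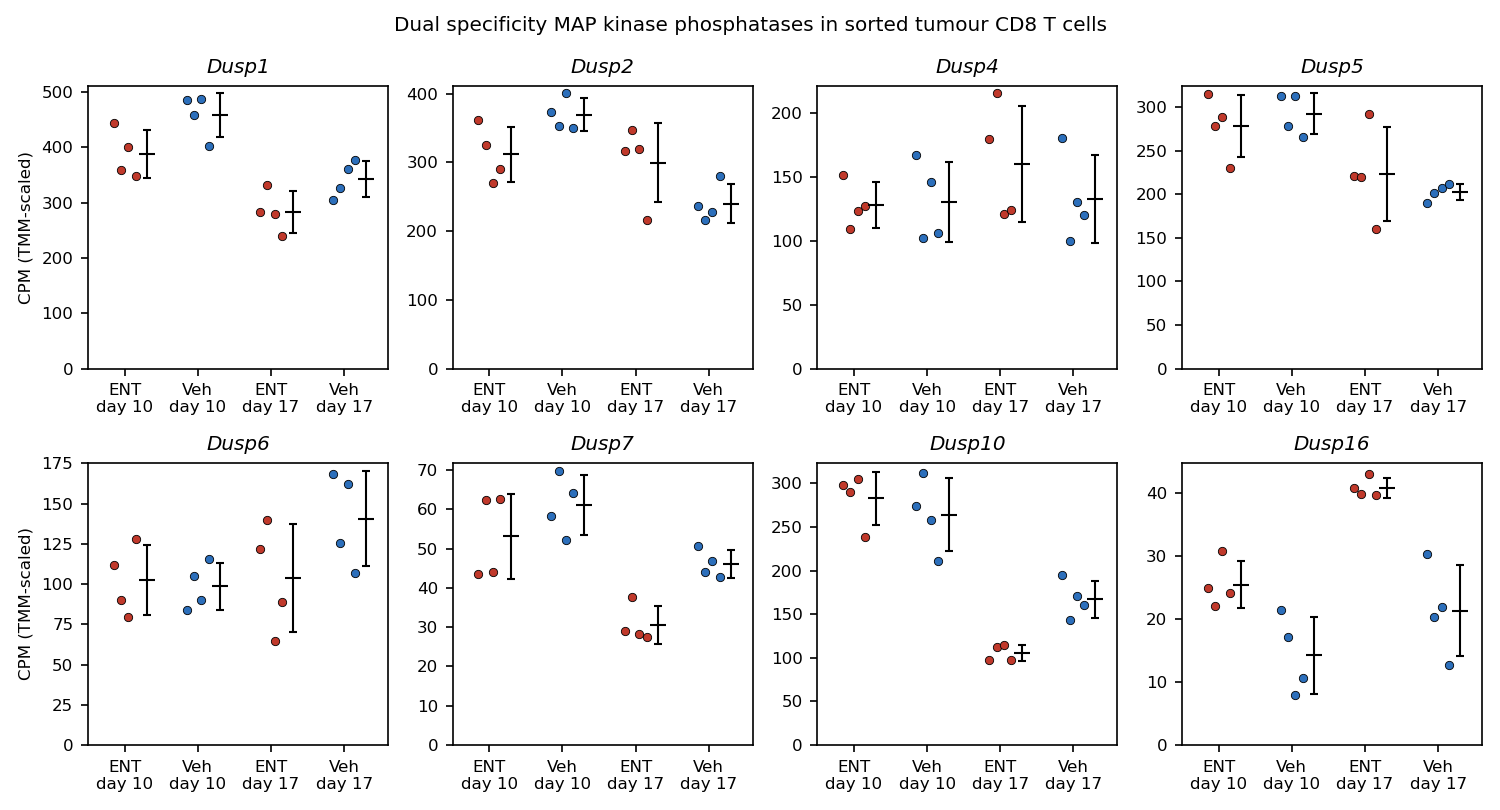
Level of each phosphatase gene (CPM on TMM-scaled library sizes, linear axis from 0) in the 4 libraries of entinostat (ENT, red) and vehicle (Veh, blue) groups at days 10 and 17; points are libraries in replicate order, and black bars are the mean with its SD. The 4 entinostat day 17 libraries lie at 97.0 to 114 CPM for Dusp10 and at 39.7 to 43.1 CPM for Dusp16, apart from all other libraries.

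With entinostat at day 17, Dusp10 and Dusp7 were lower and Dusp16 was higher, and these were 3 of 8 members called at an adjusted p under 0.05 by edgeR's quasi-likelihood test with Benjamini-Hochberg adjustment, against 18.3% of all genes tested. At day 10 none of the 8 was called with entinostat, against 14.6% of all genes tested, although Dusp1 and Dusp16 had an unadjusted p under 0.05. That count of 0 became 1 (Dusp16) under DESeq2. Between day 10 and day 17, 4 of 8 were lower in vehicle libraries (Dusp1, Dusp2, Dusp5 and Dusp10), against 5.52% of all genes tested called in either direction and 3.63% called lower. In entinostat libraries 3 of 8 were lower at day 17 (Dusp1, Dusp7 and Dusp10), against 13.7% called in either direction and 10.5% called lower. The difference between the entinostat effects at days 17 and 10 was called for none of the 8 by edgeR, against 0.471% of all genes tested. For that difference 2 members (Dusp2 and Dusp10) had an unadjusted p under 0.05, and DESeq2 called the same pair.

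The median log2 fold change of the 8 was -0.05 for entinostat over vehicle at day 10, -0.08 at day 17, -0.41 for day 17 over day 10 in vehicle libraries and -0.20 in entinostat libraries. Over all tested genes these medians were 0.06, -0.01, 0.13 and 0.03 in the same order. Among genes averaging at least 16 CPM, as all 8 members do, the medians were -0.17, -0.22, -0.10 and -0.16 with TMM scaling and -0.01, -0.06, 0.03 and -0.03 with library size alone. Fold changes below are to be read against that shift.

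**Figure D2:**
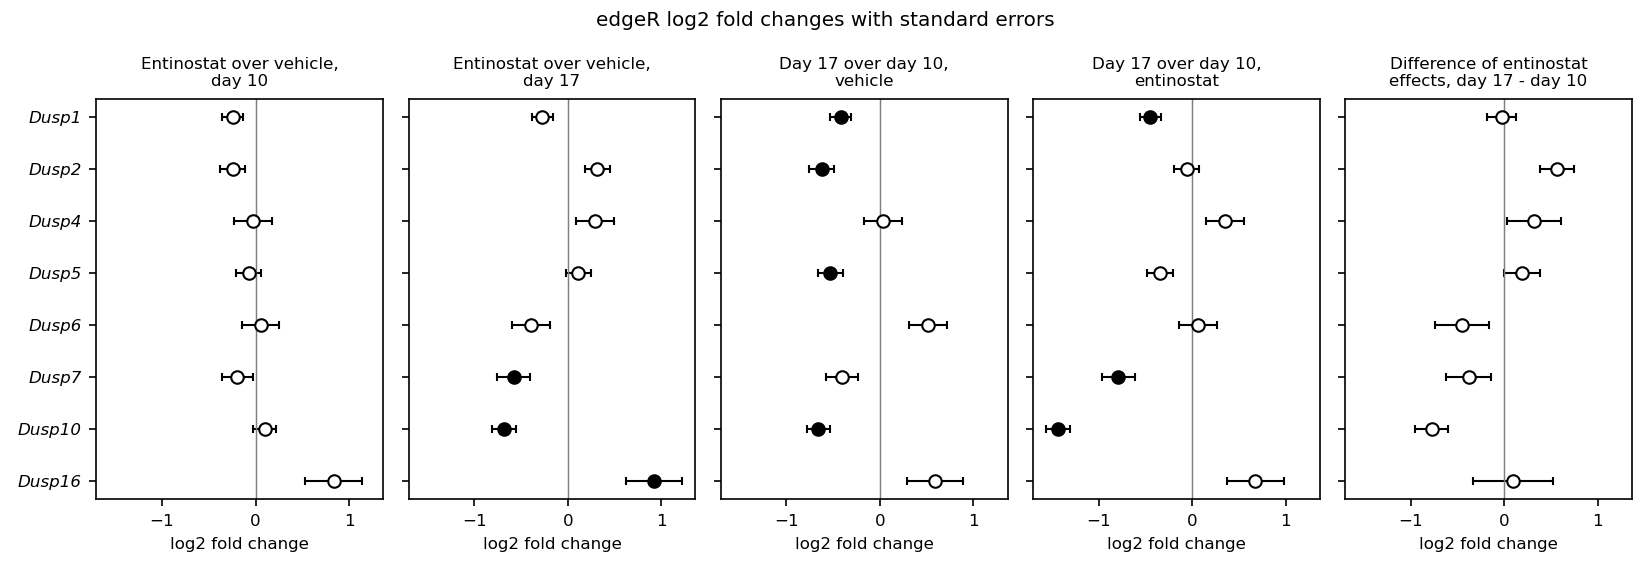
edgeR log2 fold change (points) with its standard error (bars) for each phosphatase gene in 5 comparisons; filled points have an adjusted p under 0.05 over 17414 genes. Dusp10 is filled at -0.68 for entinostat at day 17 and at -1.43 for day 17 over day 10 under entinostat, and Dusp16 is filled on the right at 0.92 for entinostat at day 17.

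Dusp10 (chromosome 1, 184034381 to 184075636, GRCm38) encodes a phosphatase of JNK and p38 found in both cytoplasm and nucleus, and in T cells it is known for holding JNK activity down. It had 98.1, 112, 114 and 97.0 CPM in entinostat day 17 libraries, against 195, 143, 171 and 160 CPM in vehicle day 17 libraries. Every entinostat day 17 library was below every vehicle day 17 library. The log2 fold change was -0.68 ± 0.13 (SE; adjusted p = 0.00139, edgeR). At day 10 it had 299, 290, 305 and 239 CPM in entinostat libraries, against 275, 312, 258 and 212 CPM in vehicle libraries. Those ranges overlapped, and the log2 fold change of 0.10 ± 0.12 did not pass the test (adjusted p = 0.582, edgeR). The difference between the day 17 and day 10 effects was -0.78 ± 0.18 and missed the threshold (adjusted p = 0.0573, edgeR), and it passed in 8 of 27 alternatives, among them DESeq2 (adjusted p = 0.00676) and the fit without vehicle day 10 replicate 2 (adjusted p = 0.0433). Over all alternatives its adjusted p ran up to 0.131.

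Dusp10 was also lower at the later day in both arms. In entinostat libraries day 17 lay 2.70-fold below day 10, with a log2 fold change of -1.43 ± 0.13 (adjusted p = 4.09e-06, edgeR). In vehicle libraries the log2 fold change for day 17 over day 10 was -0.66 ± 0.12 (adjusted p = 0.00719, edgeR). In neither arm did the days overlap. The call held in every alternative run for entinostat at day 17 and for both comparisons of days.

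Dusp16 encodes a largely cytoplasmic phosphatase with a preference for JNK and p38. It had 40.8, 39.8, 43.1 and 39.7 CPM in entinostat day 17 libraries, against 30.4, 20.4, 21.9 and 12.7 CPM in vehicle day 17 libraries. The entinostat libraries lay close together and all above the vehicle libraries, which were more scattered. The log2 fold change was 0.92 ± 0.30 (SE; adjusted p = 0.0408, edgeR). This call was lost when any of 8 of the 16 libraries was left out: entinostat day 10 replicate 1, each of the 4 entinostat day 17 libraries, or vehicle day 17 replicates 2, 3 or 4. Its adjusted p then reached 0.0886, and the log2 fold change stayed at 0.78 or above.

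At day 10 Dusp16 had 24.9, 22.1, 30.8 and 24.1 CPM in entinostat libraries, against 21.4, 17.1, 7.92 and 10.7 CPM in vehicle libraries. The groups did not overlap, and the log2 fold change of 0.83 ± 0.30 just missed the threshold (adjusted p = 0.0690, edgeR). It passed without vehicle day 10 replicate 1 (0.0486) or without vehicle day 17 replicate 1 (0.0473). Day 17 over day 10 gave a log2 fold change of 0.68 ± 0.30 in entinostat libraries, without overlap (adjusted p = 0.151, edgeR), and of 0.59 ± 0.30 in vehicle libraries, with overlap (adjusted p = 0.227, edgeR). The entinostat effects at the 2 days differed by 0.09 ± 0.43 on the log2 scale.

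Dusp16 (chromosome 6, 134715468 to 134807063, GRCm38) has the longest exons of the 8, 7798 bases in all, and the lowest level, so background reads weigh on it most. At the per-length level of the receptor genes, background would make up 20.6% of Dusp16 in entinostat day 10 libraries, 19.9% in vehicle day 10 libraries, 16.9% in entinostat day 17 libraries and 28.2% in vehicle day 17 libraries. Less that level, Dusp16 stood at 20.2 ± 3.70 CPM in entinostat day 10 libraries against 11.95 ± 6.43 CPM in vehicle day 10 libraries, and at 33.9 ± 0.93 CPM in entinostat day 17 libraries against 16.6 ± 10.0 CPM in vehicle day 17 libraries (SD, n = 4 each). With the receptor level as a covariate together with a replicate block within each day, the log2 fold change at day 17 was 1.17 (adjusted p = 0.0311, edgeR). With that block alone the call was lost (adjusted p = 0.0624), as it was with no filter on low counts (adjusted p = 0.0668).

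Of the cytoplasmic ERK phosphatases, Dusp7 was lower with entinostat at day 17 and Dusp6 was not called in any comparison. Dusp7 lies on chromosome 9 at 106368560 to 106375724 and Dusp6 on chromosome 10 at 99263231 to 99267489 (GRCm38). Dusp7 had 28.9, 37.7, 28.2 and 27.5 CPM in entinostat day 17 libraries, against 50.7, 43.9, 46.8 and 42.9 CPM in vehicle day 17 libraries. No entinostat library reached the vehicle range. The log2 fold change was -0.58 ± 0.18 (SE; adjusted p = 0.0287, edgeR). The call was lost with library size alone (adjusted p = 0.0797), a minimum count of 50 (0.0553), the receptor level as a covariate (0.0502), that covariate with a replicate block within each day (0.0874) and a fit of only the groups compared (0.0756), and also without any of entinostat day 17 replicates 1, 3 or 4 or vehicle day 17 replicates 1, 2 or 3, where the adjusted p reached 0.109.

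At day 10 Dusp7 had 43.5, 62.3, 44.1 and 62.7 CPM in entinostat libraries, against 58.4, 69.7, 52.2 and 64.1 CPM in vehicle libraries. The groups overlapped (log2 fold change -0.20 ± 0.17, adjusted p = 0.414, edgeR). Across days under entinostat Dusp7 was lower at day 17, with a log2 fold change of -0.79 ± 0.18 (adjusted p = 0.00567, edgeR) and no overlap, and this call held in all 26 alternatives. In vehicle libraries the days did not overlap either, but the log2 fold change of -0.40 ± 0.17 was not called (adjusted p = 0.143, edgeR).

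Dusp6, the ERK phosphatase that ERK signalling itself induces in many cell types, varied widely between libraries. It had 122, 139, 64.7 and 88.9 CPM in entinostat day 17 libraries, against 168, 125, 162 and 107 CPM in vehicle day 17 libraries. The ranges overlapped, with a log2 fold change of -0.40 ± 0.20 (adjusted p = 0.181, edgeR). At day 10 it averaged 102 ± 21.7 CPM in entinostat libraries and 98.6 ± 14.5 CPM in vehicle libraries (SD, n = 4 each), a log2 difference of 0.05 ± 0.20. In vehicle libraries day 17 over day 10 gave 0.51 ± 0.20 on the log2 scale (adjusted p = 0.121, edgeR).

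Of the nuclear, inducible phosphatases, 3 of 4 were called between days in vehicle libraries, against 5.52% of all genes tested. None of the 4 was called between treatments in the reported fit, against 14.6% at day 10 and 18.3% at day 17. With 4 genes, that 0 is not far from those shares. Several alternatives called Dusp2 at day 17, and limma-voom called Dusp1 there (adjusted p = 0.0311). Their genes lie on chromosome 17 at 26505591 to 26508472 (Dusp1), chromosome 2 at 127336159 to 127338377 (Dusp2), chromosome 8 at 34807610 to 34819894 (Dusp4) and chromosome 19 at 53529145 to 53541809 (Dusp5), GRCm38. Dusp1, an early response gene that acts mainly on p38 and JNK, had 284, 332, 279 and 239 CPM in entinostat day 17 libraries, against 443, 359, 400 and 348 CPM in entinostat day 10 libraries. In vehicle libraries it had 305, 327, 362 and 378 CPM at day 17, against 485, 458, 488 and 402 CPM at day 10. In both arms all day 17 libraries were below all day 10 libraries. The log2 fold change for day 17 over day 10 was -0.45 ± 0.11 under entinostat (adjusted p = 0.0130, edgeR) and -0.42 ± 0.11 under vehicle (adjusted p = 0.0366, edgeR). With library size alone neither was called, at an adjusted p of 0.0598 under entinostat and 0.134 under vehicle. The vehicle call was also lost without vehicle day 10 replicates 1, 2 or 3 or vehicle day 17 replicates 2 or 3, at an adjusted p of up to 0.119. Entinostat over vehicle gave -0.24 ± 0.11 at day 10 (adjusted p = 0.136) and -0.27 ± 0.11 at day 17 (adjusted p = 0.103) on the log2 scale by edgeR, and neither was called.

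Dusp2, a nuclear phosphatase first known from activated T cells, differed between days in vehicle libraries. It had 237, 216, 228 and 280 CPM in vehicle day 17 libraries, against 374, 353, 402 and 349 CPM in vehicle day 10 libraries. The days did not overlap, and the log2 fold change was -0.62 ± 0.13 (adjusted p = 0.0133, edgeR). Without vehicle day 10 replicate 3 the adjusted p was 0.0585. In entinostat libraries it had 316, 347, 320 and 216 CPM at day 17, against 361, 325, 270 and 290 CPM at day 10. Those ranges overlapped, and the log2 fold change of -0.06 ± 0.13 turned to 0.06 with library size alone.

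For Dusp2 entinostat over vehicle gave 0.32 ± 0.13 on the log2 scale at day 17 (adjusted p = 0.104, edgeR), with 3 of 4 entinostat libraries above every vehicle library and replicate 4 level with the lowest vehicle library. Without that replicate the log2 fold change was 0.48 (adjusted p = 0.0101), and without vehicle day 17 replicate 4 it was 0.43 (adjusted p = 0.0365). It was also called with RLE scaling (adjusted p = 0.0401), library size alone (0.0205), a minimum count of 50 (0.0231), genes above the receptor background (0.0319) and DESeq2 (0.0147). At day 10 it was -0.25 ± 0.13 (adjusted p = 0.192, edgeR). The 2 effects differed by 0.56 ± 0.19 on the log2 scale (adjusted p = 0.188, edgeR), and without entinostat day 17 replicate 4 the adjusted p was 0.0478.

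Dusp5, the nuclear phosphatase specific to ERK, had 190, 202, 207 and 212 CPM in vehicle day 17 libraries, against 313, 279, 312 and 266 CPM in vehicle day 10 libraries. The vehicle days did not overlap. The log2 fold change was -0.53 ± 0.13 (adjusted p = 0.0296, edgeR), and the call was lost without vehicle day 10 replicates 1, 2 or 3 or vehicle day 17 replicate 2, at an adjusted p of up to 0.0963. It was lost as well with library size alone (adjusted p = 0.0965), a minimum count of 50 (0.0821) and genes above the receptor background (0.0640). Under entinostat it had 221, 219, 292 and 160 CPM at day 17, against 315, 278, 288 and 231 CPM at day 10, with a log2 fold change of -0.34 ± 0.14 (adjusted p = 0.107, edgeR). The high value at day 17 came from the shallowest library, replicate 3. Without it the adjusted p was 0.0154, and without entinostat day 10 replicate 4 it was 0.0421.

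Dusp4, a nuclear phosphatase of ERK and JNK that belongs to the genes raised in strongly stimulated T cells, was not called in any comparison. It had 180, 216, 121 and 124 CPM in entinostat day 17 libraries, against 180, 99.8, 131 and 121 CPM in vehicle day 17 libraries. The ranges overlapped (log2 fold change 0.29 ± 0.21, adjusted p = 0.342, edgeR). At day 10 it averaged 128 ± 17.9 CPM in entinostat libraries and 131 ± 31.5 CPM in vehicle libraries (SD, n = 4 each). Its spread within groups, with a coefficient of variation of 13.9% to 28.5%, limits what could be detected.

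Other RNA moved beside these comparisons. The counts below stand beside the shares of all tested genes. With entinostat 7.63% were called higher and 6.93% lower at day 10, and 5.29% higher and 13% lower at day 17. At day 17 against day 10, 1.89% were higher and 3.63% lower in vehicle libraries. In entinostat libraries 3.26% were higher and 10.5% lower. With entinostat 11 of 12 plasmacytoid dendritic cell genes were lower at each day, and 4 of 10 conventional dendritic cell genes at day 10 and 6 of 10 at day 17. Of 6 CD4 T cell genes 1 was higher and 1 lower with entinostat at day 10, and 2 higher and 1 lower at day 17. Of 4 tested natural killer cell genes 1 was lower with entinostat at each day. Their list summed to 120 to 163 CPM in entinostat and 228 to 275 CPM in vehicle day 10 libraries. At day 17 these sums were 58.1 to 136 CPM and 219 to 255 CPM. Of 9 tested macrophage, monocyte and neutrophil genes 5 were higher and 2 lower with entinostat at day 10, and 1 was higher and 2 lower at day 17. Their list summed to 184 to 273 CPM in entinostat day 10 libraries against 88.4 to 209.7 CPM in vehicle day 10 libraries. Dissociation and heat stress can induce early response genes such as Dusp1. Of 14 genes of tissue handling and heat stress 7 were lower at day 17 than at day 10 in vehicle libraries and 5 in entinostat libraries. Fos, Jun, Egr1, Ier2 and Atf3 of that list were called between days in neither arm. Their log2 fold changes for day 17 over day 10 were 0.03, 0.05, -0.09, -0.37 and 0.70 in vehicle libraries. In entinostat libraries they were -0.17, -0.30, -0.12, -0.28 and 0.01. Others of that list were called: Socs3 was lower at day 17 in both arms, at -0.39 in vehicle and -0.74 in entinostat libraries. Nfkbia was called lower in vehicle libraries alone, at -0.48 against -0.19 in entinostat libraries. Zfp36 was called lower in entinostat libraries alone, at -0.58 against -0.29 in vehicle libraries. With entinostat 4 of the 14 were lower at day 10 and 3 at day 17 (Dnajb1, Jun and Zfp36). Hspa1a, a heat shock protein whose reads are hard to separate from those of its near copy Hspa1b, averaged 65.4 ± 35.4 CPM in vehicle day 17 libraries against 391 ± 31.9 CPM in vehicle day 10 libraries, and 32.2 ± 18.4 CPM in entinostat day 17 libraries against 178 ± 94.8 CPM in entinostat day 10 libraries (SD, n = 4 each). Of 9 fibroblast and endothelial genes 3 were lower with entinostat at day 17, and 4 were higher in vehicle libraries at day 17 than at day 10, with a summed level of 332 to 1650 CPM at day 17 and 173 to 485 CPM at day 10. The part of these in the members' levels was not tested. In comparisons of days, time since tumour injection and any difference in handling between harvests cannot be told apart.

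Ratios between members within a library do not depend on scaling between libraries, but they can still vary with depth. The Dusp16 to Dusp7 ratio was 0.599 in the deepest and 0.296 in the shallowest vehicle day 17 library. In entinostat day 17 libraries it went the other way, at 1.06 in the deepest and 1.53 in the shallowest. The count ratio of Dusp16 to Dusp7 was 1.41, 1.06, 1.53 and 1.44 in entinostat day 17 libraries, against 0.599, 0.464, 0.467 and 0.296 in vehicle day 17 libraries. Dusp16 had more reads than Dusp7 in each of the 4 entinostat day 17 libraries and fewer in each of the other 12. At day 10 the ratio was 0.503 ± 0.163 in entinostat libraries and 0.233 ± 0.0981 in vehicle libraries (SD, n = 4 each), with overlap. The ratio of Dusp10 to Dusp5 was 0.444, 0.512, 0.392 and 0.605 in entinostat day 17 libraries, against 1.03, 0.709, 0.823 and 0.758 in vehicle day 17 libraries, with no overlap. The ratio of Dusp2 to Dusp1 was 1.11, 1.05, 1.15 and 0.903 in entinostat day 17 libraries, against 0.776, 0.659, 0.630 and 0.741 in vehicle day 17 libraries, again with no overlap. These pairs were chosen after the values had been seen.

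**Figure D3:**
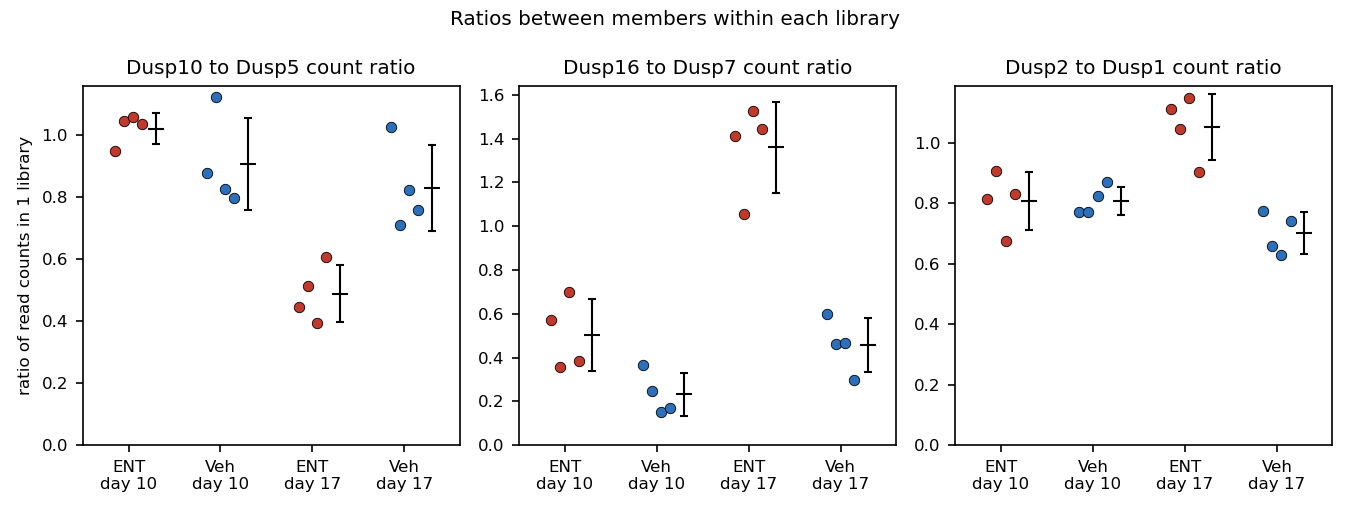
Ratio of read counts of 2 phosphatase genes within each library (linear axis from 0), for entinostat (ENT, red) and vehicle (Veh, blue) groups at days 10 and 17; points are libraries, and black bars are the mean with its SD. The Dusp16 to Dusp7 ratio is above 1 in the 4 entinostat day 17 libraries alone.

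Seen as a share of the summed per-length level of the 8 genes, Dusp10 made up 7.54% ± 0.97 in entinostat day 17 libraries against 11.7% ± 1.00 in vehicle day 17 libraries, and 16.2% ± 1.44 in entinostat day 10 libraries against 13.8% ± 1.86 in vehicle day 10 libraries (SD, n = 4 each). Dusp2 made up 32.0% ± 1.64 in entinostat day 17 libraries and 25.5% ± 2.32 in vehicle day 17 libraries, but 26.9% ± 1.98 in entinostat day 10 libraries and 29.4% ± 1.31 in vehicle day 10 libraries. Dusp16 held 1.15% ± 0.19 in entinostat day 17 libraries and 0.58% ± 0.19 in vehicle day 17 libraries.

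The rest of the MAP kinase network was read from lists of genes. Of all tested genes, 5.29% were called higher and 13% lower with entinostat at day 17, and 7.63% higher and 6.93% lower at day 10. Between days 1.89% were higher and 3.63% lower in vehicle libraries, and 3.26% higher and 10.5% lower in entinostat libraries. Of 15 other phosphatases tested (MAP kinase phosphatases and small dual specificity enzymes), none was called with entinostat at day 10 and 1, Dusp12, was lower at day 17. Dusp12 averaged 13.9 ± 3.28 CPM in entinostat day 17 libraries and 24.5 ± 2.95 CPM in vehicle day 17 libraries (log2 fold change -0.79 ± 0.24, adjusted p = 0.0304, edgeR), a call lost without entinostat day 17 replicates 1, 3 or 4 or vehicle day 17 replicates 1, 2 or 3, at an adjusted p of up to 0.115. None of the 15 was called between days in vehicle libraries, whereas under entinostat 4 were higher at day 17 (Dusp3, Dusp14, Dusp22 and Ptpn5) and 2 were lower (Dusp11 and Dusp12). Of these, Ptpn5 averaged 6.31 ± 3.91 CPM in entinostat day 10 libraries and 37.5 ± 18.0 CPM in entinostat day 17 libraries. Dusp3 averaged 13.4 CPM over all libraries. Beside these low levels, the 95th percentile of the receptor genes' highest group means was 10.7 CPM. Dusp22, which acts on signalling near the T cell receptor, averaged 43.7 ± 6.10 CPM in entinostat day 17 libraries and 23.4 ± 4.76 CPM in entinostat day 10 libraries (log2 fold change 0.91 ± 0.22, adjusted p = 0.00833, edgeR).

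In the JNK and p38 cascades, 1 of 22 genes was higher and 5 were lower with entinostat at day 17. Gadd45g, whose product activates the kinase upstream of p38 and JNK, averaged 63.5 ± 18.0 CPM in entinostat day 17 libraries and 27.1 ± 2.76 CPM in vehicle day 17 libraries (log2 fold change 1.24 ± 0.21, adjusted p = 0.000616, edgeR). Its relative Gadd45a was lower, at 13.5 ± 4.73 CPM in entinostat day 17 libraries and 33.8 ± 10.0 CPM in vehicle day 17 libraries (log2 fold change -1.30 ± 0.29, adjusted p = 0.00457, edgeR). Map3k1, an upstream kinase of JNK, was lower with entinostat on both days, with a log2 fold change of -0.59 ± 0.12 at day 17 and -0.47 ± 0.11 at day 10, the day 10 call being lost without entinostat day 10 replicate 1 (adjusted p = 0.0501, edgeR) or 3 (0.0503). At day 10, 2 genes were higher (Mapk11 and Mapk12, which encode p38 isoforms) and Map3k1 was the only one lower. Mapk12 averaged 6.97 CPM over the 16 libraries, a level at which background reads weigh. The 95th percentile of the receptor genes' highest group means was 10.7 CPM. Mapk11 averaged 57.7 ± 11.5 CPM in entinostat day 10 libraries and 33.8 ± 6.17 CPM in vehicle day 10 libraries (log2 fold change 0.78 ± 0.22, adjusted p = 0.0274, edgeR), and the call was lost without entinostat day 10 replicate 2 or vehicle day 10 replicates 3 or 4, at an adjusted p of up to 0.0835. With the replicate block within each day its adjusted p was 0.0614. Between days, 8 of the 22 were lower at day 17 under entinostat and 4 under vehicle, and none was higher.

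In the RAS-ERK cascade, 2 of 17 genes were lower with entinostat at day 17, among them Araf, which encodes a kinase that starts the cascade, and 5 were lower and 1 (Nf1) higher at day 10. Araf gave a log2 fold change of -0.56 ± 0.09 at day 17 and -0.37 ± 0.09 at day 10. The day 10 call was lost without entinostat day 10 replicates 1, 2 or 3 or vehicle day 10 replicates 2 or 4, at an adjusted p of up to 0.0884. Of 10 kinases downstream of MAP kinases, 3 were lower with entinostat on each day. Rps6ka1, a kinase that ERK activates, averaged 281 ± 55.7 CPM in entinostat day 17 libraries and 401 ± 41.5 CPM in vehicle day 17 libraries (adjusted p = 0.00876, edgeR), and Mknk1 averaged 57.7 ± 25.5 CPM in entinostat day 17 libraries and 121 ± 16.1 CPM in vehicle day 17 libraries (adjusted p = 0.00245, edgeR). In vehicle libraries 4 of the 17 cascade genes were lower and 1 higher at day 17, with Sos1, a RAS exchange factor, at 59.5 ± 17.1 CPM at day 17 and 120 ± 15.5 CPM at day 10.

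Among 24 transcription factor genes that answer MAP kinases, 5 were lower with entinostat at day 17 (Creb1, Elk4, Fosl2, Ier5 and Jun) and 1, Elk4, at day 10. The day 10 call for Elk4 was lost without any 1 of 11 libraries, all 8 of day 10 among them, at an adjusted p of up to 0.124 by edgeR. Fosl2, which encodes an AP-1 subunit, averaged 214 ± 17.5 CPM in entinostat day 17 libraries and 348 ± 43.5 CPM in vehicle day 17 libraries (log2 fold change -0.71 ± 0.11, adjusted p = 0.000323, edgeR). At day 10 it averaged 687 ± 63.6 CPM in entinostat libraries and 572 ± 68.8 CPM in vehicle libraries. It was the only gene of these lists that passed the test of the difference between the entinostat effects at the 2 days, by -0.97 ± 0.16 on the log2 scale (adjusted p = 0.0146, edgeR). Ier5 averaged 127 ± 17.9 CPM in entinostat day 17 libraries and 215 ± 20.4 CPM in vehicle day 17 libraries (log2 fold change -0.76 ± 0.11, adjusted p = 0.000138, edgeR). In the comparison of days, 5 of the 24 were lower at day 17 under vehicle and 6 under entinostat, and none was higher. Of 11 tested genes of the Sprouty and SPRED type and other brakes on ERK, 1 was lower with entinostat at day 17. That gene was Rasa3, a RAS GTPase activator, at 253 ± 37.7 CPM in entinostat day 17 libraries and 421 ± 26.7 CPM in vehicle day 17 libraries (adjusted p = 9.72e-05, edgeR).

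The median log2 fold change with entinostat at day 17 was -0.06 for the other phosphatases, -0.10 for the RAS-ERK cascade, -0.23 for the JNK and p38 cascades, -0.03 for the downstream kinases, -0.39 for the brakes on ERK and -0.13 for the transcription factor genes, beside -0.01 for all tested genes and -0.22 for those averaging at least 16 CPM.

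**Figure D4:**
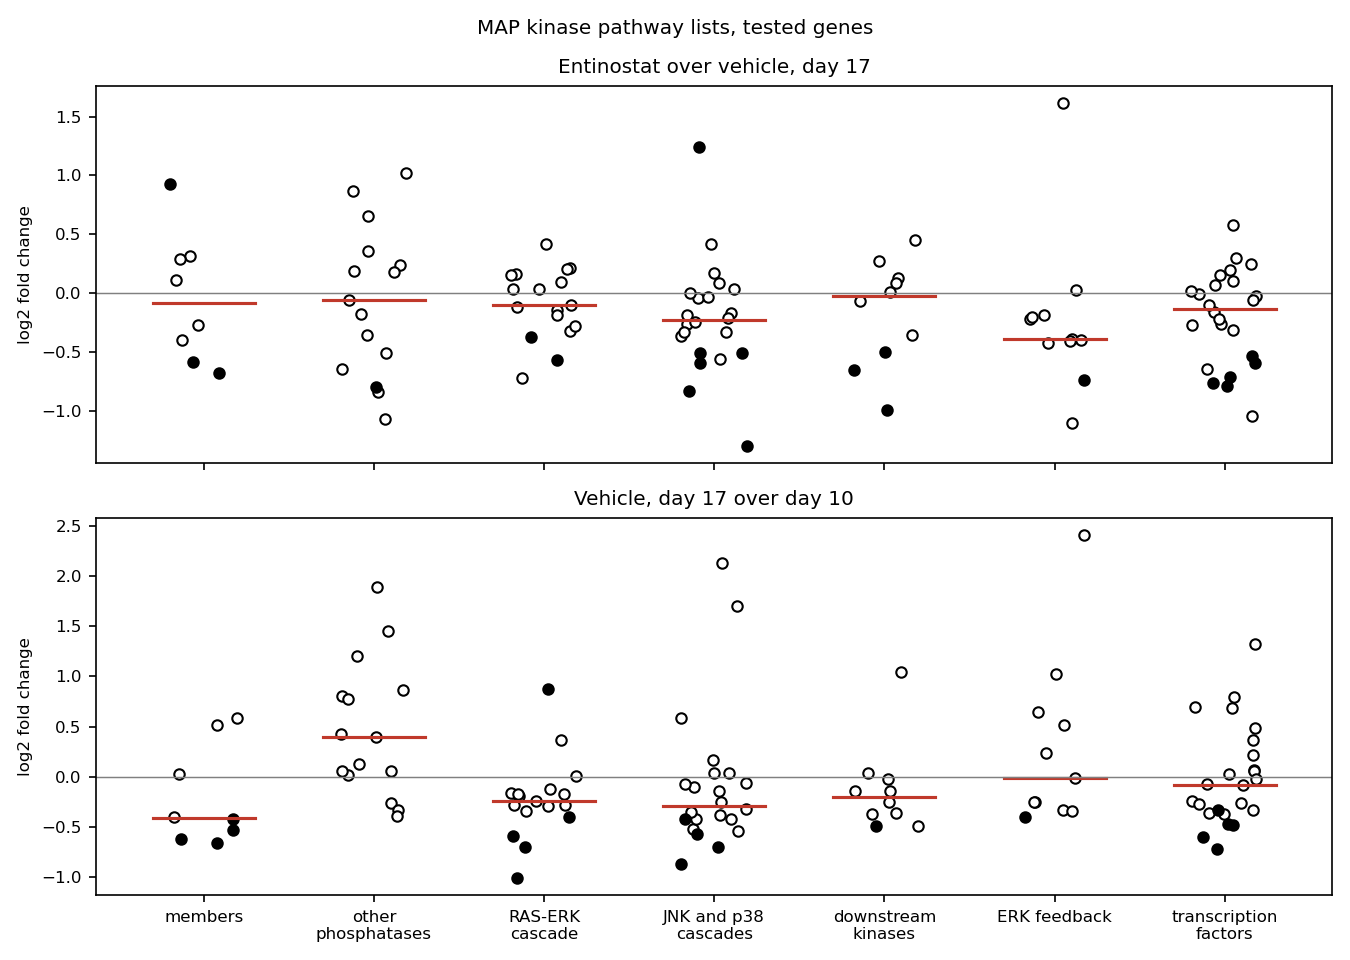
edgeR log2 fold change of each tested gene of the phosphatase members and 6 lists of MAP kinase pathway genes, for entinostat over vehicle at day 17 (top) and for day 17 over day 10 in vehicle libraries (bottom); filled points have an adjusted p under 0.05, and red lines are medians. Called genes lie mostly below 0 in both panels, with Gadd45g at 1.24 and Dusp16 at 0.92 the filled points above 0 in the top panel.

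Members differed in how they varied with one another across the 16 libraries, which share 4 groups, sequencing depth and scaling, so correlations of log2 CPM are given as description. Dusp1, Dusp2 and Dusp5 varied together also within groups, with r = 0.71 for Dusp1 and Dusp2, 0.63 for Dusp1 and Dusp5 and 0.69 for Dusp2 and Dusp5 after removal of group means. Dusp7 and Dusp10 had r = 0.82 over all libraries and 0.04 within groups. Dusp6 and Dusp5 had r = -0.54 over all libraries and -0.43 within groups.

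The genes whose pattern was most like each member, among 9496 genes averaging at least 16 CPM, were found by Pearson's r over the same 16 libraries. Fosl2 was the gene most like Dusp10 (r = 0.98, and 0.70 within groups), followed by Tcp11l2 and Pja1. The immediate early gene Btg2 was most like Dusp5 (r = 0.96, and 0.95 within groups), followed by Ier2 and Pim1. Ptpn22, a phosphatase that restrains T cell receptor signalling, was most like Dusp2 (r = 0.93, and 0.84 within groups). Dock2 was most like Dusp1 (r = 0.96, and 0.92 within groups). Acp5 was most like Dusp7 (r = 0.96, and 0.85 within groups) and Serpinb9b most like Dusp16 (r = 0.87, but 0.50 within groups). Ptms was most like Dusp6 (r = 0.85, and 0.85 within groups) and Kif13b most like Dusp4 (r = 0.84, and 0.84 within groups). No member was among the 3 most similar genes of another.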

How the data were processed

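RNA from CD8 T cells, sorted as live, CD45.2-positive, CD8-positive and CD4-negative, was made into cDNA with the SMART-seq v4 kit and into libraries with Nextera XT, per the labels. The deposited values are whole read counts per gene, not scaled between libraries. The submitters' processing notes name STAR and mm10. Which program and annotation gave the counts, and whether duplicate reads were removed, is not given in the sources used here. The protocol keeps no strand and no molecular identifiers, so antisense reads cannot be separated and reads are not independent molecules.

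Groups and replicate numbers came from the labels. They do not say that libraries came from separate mice, so p-values reflect only how these samples vary, which may be technical. Counts were tested with edgeR 4.0.16 (quasi-likelihood, TMM, filterByExpr with a minimum count of 10, 16 libraries, 4 group means, 12 residual degrees of freedom) in R 4.3.3, with Benjamini-Hochberg adjustment over 17414 genes within each of 5 comparisons and a threshold of 0.05. CPM use TMM-scaled library sizes, and levels per kilobase use the union of GENCODE M21 exons (GRCm38). The fit was tested on simulated counts. Alternatives used DESeq2 1.42.0, limma 3.58.1, other scalings and filters, covariates, blocks and left-out libraries. No libraries of the same group were alike within counting error (lowest ratio of chi-square to degrees of freedom 3.28).

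Whether equal replicate numbers pair libraries was checked by correlating deviations from group means over genes averaging at least 16 CPM. At day 10 the entinostat and vehicle libraries of one number gave r of 0.259, 0.260, 0.240 and 0.270, against up to 0.254 for unlike numbers. Over all 17414 tested genes the same correlations were 0.180, 0.033, 0.114 and 0.057, against up to 0.259 for unlike numbers. Between the vehicle groups of the 2 days, unlike numbers reached 0.536 over genes averaging at least 16 CPM. These values do not settle whether the numbers pair libraries at day 10, and the labels do not say. In no other comparison were all 4 above 0.1.

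The members and gene lists were chosen with earlier results of these data known. From each list, up to 3 genes of smallest p per comparison, past the threshold and averaging at least 16 CPM, are named with values, apart from some that are not reported here. Genes named without values were listed from the counts of 5 or fewer after these had been seen. Fos, Jun, Egr1, Ier2, Atf3, Socs3, Nfkbia and Zfp36 between days were also added after their values had been seen. So were the levels of Mapk12 and Dusp3, the counts of Actb, and Cd4 and the natural killer cell genes by treatment. Promoter sequences and member positions are RefSeq's for GRCm38.p6.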

Additional observations from a re-analysis of the deposited data

Results flagged for a closer look

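Of 32 sets of 4 libraries (8 genes in 4 groups), 1 held a library far from the others by Dixon's test at the 95% level, where chance alone gives about 5%. Dusp7 stood at 37.7 CPM in entinostat day 17 replicate 2, above the other libraries of that group, which lay between 27.5 and 28.9 CPM. That value is still below every vehicle day 17 library, and leaving that library out did not end the call for Dusp7 at day 17.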

How the results depend on the processing

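Each member and comparison was refitted under up to 28 alternatives, 1080 values in all, of which 954 kept direction and side of the threshold, 42 lost the call, 33 gained one and 51 changed sign, all of these last from values near 0 that were not called. Members called with entinostat at day 10 (0) became 1, Dusp16, with library size alone, a minimum count of 50, genes above the receptor background, DESeq2 or limma-voom, and ranged from 0 to 1 over left-out libraries. At day 17 the 3 calls became 4 with RLE scaling, genes above the background or DESeq2 (Dusp2 added) and with limma-voom (Dusp1 added), and stayed 3 with library size alone or a minimum count of 50, where Dusp2 was added and Dusp7 lost. They became 2 with no filter, either block within each day, the covariate or only the groups compared, and ranged from 1 to 3 over left-out libraries, with 1 left without entinostat day 17 replicate 1 or 3 or vehicle day 17 replicate 2 or 3. The 4 vehicle calls between days became 2 (Dusp2 and Dusp10) with library size alone, a minimum count of 50 or genes above the background, 3 with RLE or only the groups compared, and 5 (Dusp6, higher, added) with limma-voom or the covariate, and ranged from 1 (without vehicle day 10 replicate 3) to 4. The 3 under entinostat became 2 with library size alone or a minimum count of 50, 4 with the covariate and 5 with limma-voom, stayed 3 with only the groups compared (Dusp1 lost, Dusp16 added), and ranged from 3 to 4. For the difference of effects, 0 became 1 with library size alone, a minimum count of 50, genes above the background, limma-voom, the receptor covariate, or that covariate with the block within each day, 2 with DESeq2, and 0 to 1 over left-out libraries (1 without vehicle day 10 replicate 2 or entinostat day 17 replicate 4).

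The replicate block within each day would apply if equal numbers were pairs, which was not settled. With it, 0 members were called at day 10 (Dusp16 adjusted p = 0.106) and all genes called there went down to 1160, against 2534. At day 17, 2 members were called with that block and Dusp16 had an adjusted p of 0.0624. Without the covariate, the block changed no other member's call; with it, Dusp7 at day 17 had an adjusted p of 0.0874.

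Changes of sign (log2) were as follows. Dusp4 with entinostat at day 10 (-0.03) became 0.0255 with RLE scaling, 0.0262 with DESeq2, 0.137 with library size alone, 0.0972 with a minimum count of 50, 0.0661 with genes above the background, 0.0549 with the covariate, 0.138 with covariate and block, 0.0726 with only the groups compared, and -0.124 to 0.145 over left-out libraries. Dusp5 there (-0.07) became 0.0923, 0.0564, 0.0252 and 0.0271 with library size, minimum count, background and only the groups compared, and -0.143 to 0.0341. Dusp6 there (0.05) became -0.0131 with limma-voom and -0.0515 to 0.165. Dusp2 between days under entinostat (-0.06) became 0.0105 with RLE, 0.0104 with DESeq2, 0.0590 with library size, 0.0642 with the minimum count, 0.0273 with background, and -0.163 to 0.0520, and Dusp6 (0.06) -0.123 to 0.181. Dusp4 between days under vehicle (0.03) became -0.167 with limma-voom and -0.183 to 0.152. In the difference of effects Dusp1 became 0.0163 with RLE, 0.0172 with DESeq2, 0.0025 with the minimum count, and -0.119 to 0.0423, and Dusp16 -0.167 to 0.317. The cause was not tested.

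Genes called over the whole table ranged over the alternatives from 827 to 6746 at day 10 (2534 in the reported fit), 1946 to 4899 at day 17 (3190), 212 to 2804 between days under vehicle (961), 1748 to 3934 under entinostat (2393) and 14 to 563 for the difference of effects (82), with the lowest counts under vehicle and for the difference coming without vehicle day 10 replicate 3.

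Of the 1643 values of named pathway genes, 1443 stayed called and 200 were lost, with no change of sign. Counts did not follow depth alike in all groups: the deepest library had 2.16 times the reads and 1.64 times the Dusp1 count of the shallowest in entinostat day 10, and 6.37 and 7.34 times in entinostat day 17. The shallowest library, entinostat day 17 replicate 3, held 17 reads of Dusp7 and 26 of Dusp16.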
